A study of Mus musculus with 16 samples.

Results

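Imprinted growth regulators are genes that are transcribed mainly from the maternal or mainly from the paternal allele and that set the growth of embryo, placenta and stem cells. Described here are 10 of them, chosen by gene symbol and found in a table of 54347 genes. They are the IGF axis genes Igf2 and Igf2r, the maternally expressed non-coding RNAs H19 and Meg3, the surface protein Dlk1, the signalling adaptor Grb10, the transcriptional regulators Plagl1, Peg3 and Ndn, and the signalling locus Gnas. Their levels were read from bulk RNA-seq of LSKs, a gate of bone marrow cells negative for lineage markers and positive for Sca-1 and c-Kit that holds the hematopoietic stem cells and multipotent progenitors, and of GMPs, granulocyte-monocyte progenitors negative for lineage markers and Sca-1 and positive for c-Kit and Cd16/32. Each cell type was sorted from the femurs of 4 WT and 4 URE mice. URE mice lack the upstream regulatory element of Spi1, the enhancer that drives expression of the transcription factor PU.1, and PU.1 is reduced in them rather than absent. The mice were littermates of 8 to 12 weeks of age on a C57BL/6 background. The deletion is constitutive, so that every cell of the mouse carries it. The GMP gate did not use Cd34, and up to 10 ng of RNA entered each library.

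At imprinted loci, DNA methylation laid down in the germ line differs between the parental copies, and factors such as ZFP57 and CTCF keep or read the mark. Many imprinted genes stand in clusters in which a non-coding RNA and a growth gene are expressed from opposite alleles, as H19 and Igf2 or Meg3 and Dlk1. In blood, imprinted genes of this kind are known mainly from long-term hematopoietic stem cells, where H19 restrains IGF signalling, where Meg3 and its neighbours hold back metabolism, and where the kinase inhibitor Cdkn1c keeps cells quiescent. Total RNA levels do not tell which parental allele was read, so nothing below bears on imprinting itself.

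Spi1 was checked first. WT LSKs held 124 ± 40 CPM (counts per one-millionth of the TMM-scaled library, SD, n = 4) of Spi1 and URE LSKs 3.02 ± 1.42, and WT GMPs held 140 ± 40.6 and URE GMPs 21.3 ± 5.97. All libraries fit their labels in this respect. Total counts lay between 20028302 and 29128858 per library. The markers of the sorted populations separated GMPs from LSKs, and all 8 GMP markers tested were called higher in GMPs of both genotypes. Some of these markers also differed by genotype. In URE GMPs Fcgr3 was called higher (log2 fold change 1.34) and Ms4a3 (-1.83), Cd34 (-1.8) and Flt3 (-2.78) lower than in WT GMPs. Of the GMP markers in URE LSKs, Elane (1.15) was called higher and Fcgr2b (-4.77) and Prtn3 (-2.48) lower. Replicates 1 and 4 stood apart from replicates 2 and 3 in every group on the leading principal components. Y-linked transcripts were present in WT replicates 1, 2 and 3 and in URE replicate 1 of both cell types and near 0 in the others, so that sexes were unevenly spread over the genotypes and the pairs numbered 2 and 3 differed in sex. Values within replicates 1 and 4 and within replicates 2 and 3 are given beside the results that moved most between these sets. In sorted bulk samples, fewer cells of a type that expresses a gene and less RNA per cell cannot be told apart.

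In the tests below a gene is called at an adjusted p under 0.05 by edgeR's quasi-likelihood test and a fold change above 1.5, and a member is tested only where its counts pass edgeR's filter on low counts.

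The members differed widely in level. Per kilobase of annotated exon, WT LSKs held 8.53 ± 1.79 CPM of Gnas, 8.35 ± 5.84 of Grb10, 4.97 ± 1.96 of Ndn and 3.67 ± 2.15 of Igf2r (SD, n = 4), and the ranges of neighbours in this order overlapped. After a gap without overlap followed Dlk1 at 0.281 ± 0.101 CPM per kilobase, and then Igf2, Meg3, H19, Peg3 and Plagl1, each overlapping its neighbour, down to 0.0041 ± 0.0082 for Plagl1. The exon lengths are those of all annotated isoforms together, 18089 bases for Meg3, and understate the level of a gene that uses few of them. In WT GMPs the order kept Gnas (10.7 ± 2.01) and Grb10 (7.83 ± 6.44) at the top, and Igf2r followed at 0.227 ± 0.103 with no overlap. In URE GMPs Plagl1 stood next after Grb10 and Gnas at 1.24 ± 0.801 CPM per kilobase, where it overlapped Igf2r at 0.486 ± 0.179.

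**Figure D1:**
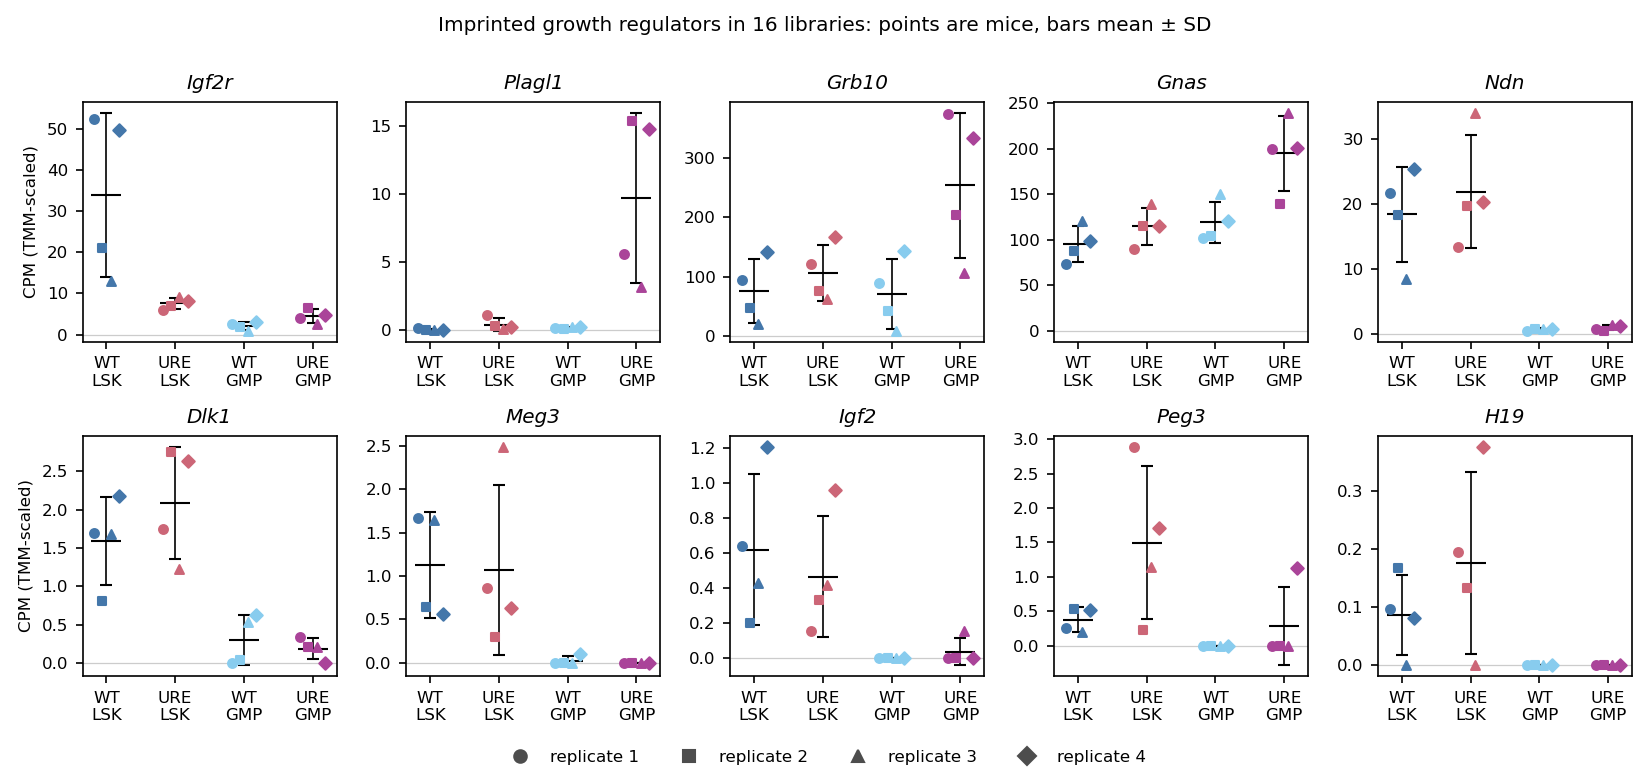
CPM of the 10 members in the 16 libraries, with 1 panel per gene, 1 point per mouse, the replicate number as the symbol, and bars for mean ± SD (n = 4). Igf2r stands at 13.1 to 52.5 CPM in WT LSKs and at no more than 9.18 CPM elsewhere, Plagl1 at 3.13 to 15.4 CPM in URE GMPs and at no more than 1.09 CPM elsewhere, and the means of Ndn, Dlk1, Meg3, Igf2 and H19 are higher in LSKs than in GMPs of both genotypes.

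Promoter windows are shown for the members that were called lower in GMPs than in LSKs (Igf2r, Ndn, Meg3, Dlk1) and for Plagl1, which with Gnas was called higher in URE GMPs than in URE LSKs. Each runs over the 250 bases upstream of a RefSeq transcript start (GRCm38.p6). Capitals mark matches, on either strand, to the PU.1 core GAGGAA, the RUNX core TGTGGT or the E-box CACGTG, the last of which was chosen after the sequences had been seen. The Meg3 window shown is that of the upstream of 2 RefSeq starts. The other window (chr12:109545148-109545397) and the 4 windows of Gnas held none of these motifs and are not shown.

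Igf2r, chr17:12769707-12769956, minus strand: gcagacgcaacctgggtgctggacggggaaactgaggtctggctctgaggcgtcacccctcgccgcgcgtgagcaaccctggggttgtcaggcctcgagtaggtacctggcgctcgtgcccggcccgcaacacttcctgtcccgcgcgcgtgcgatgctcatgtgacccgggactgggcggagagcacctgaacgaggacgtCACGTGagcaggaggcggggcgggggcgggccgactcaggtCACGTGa
Ndn, chr7:62348027-62348276, plus strand: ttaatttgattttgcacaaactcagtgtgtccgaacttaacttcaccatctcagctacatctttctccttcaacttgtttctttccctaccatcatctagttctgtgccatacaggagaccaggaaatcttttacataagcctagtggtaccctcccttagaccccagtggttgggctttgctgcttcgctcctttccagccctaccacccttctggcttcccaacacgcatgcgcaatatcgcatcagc
Meg3, chr12:109540746-109540995, plus strand: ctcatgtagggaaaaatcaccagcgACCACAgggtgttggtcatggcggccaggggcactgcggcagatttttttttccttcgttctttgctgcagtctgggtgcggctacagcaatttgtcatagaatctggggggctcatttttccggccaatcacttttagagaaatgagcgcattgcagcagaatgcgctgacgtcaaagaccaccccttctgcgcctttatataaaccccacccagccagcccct
Dlk1, chr12:109452573-109452822, plus strand: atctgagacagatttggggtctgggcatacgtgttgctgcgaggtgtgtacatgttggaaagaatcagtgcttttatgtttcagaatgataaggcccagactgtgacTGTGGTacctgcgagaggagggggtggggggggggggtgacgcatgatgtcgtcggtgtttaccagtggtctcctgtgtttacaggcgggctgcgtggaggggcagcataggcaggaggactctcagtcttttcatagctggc
Plagl1, chr10:13090582-13090831, plus strand: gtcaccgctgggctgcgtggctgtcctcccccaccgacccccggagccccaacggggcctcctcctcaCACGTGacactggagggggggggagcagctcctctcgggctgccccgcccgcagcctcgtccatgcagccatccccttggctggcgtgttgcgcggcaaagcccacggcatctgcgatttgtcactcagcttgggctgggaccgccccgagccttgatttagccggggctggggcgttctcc

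The Igf2r window held 2 E-boxes and the Plagl1 window 1, the Meg3 and Dlk1 windows 1 RUNX core each, and the Ndn window none of the motifs. The Ndn window lies inside the GENCODE exon of Ndn (62346569 to 62350262), which starts upstream of the RefSeq start. The level of Ndn per kilobase used the whole exon of 3694 bases. Of the 10 members, 9 had at least 1 window among the RefSeq promoters, 17 windows in all. The PU.1 core stood in 3 of the 17 windows, all at Igf2 or Peg3, the RUNX core in 2 and the E-box in 2. Among 32851 windows of the same length, 23.3% held the PU.1 core, 14% the RUNX core and 6.02% the E-box. The windows of Igf2r, with 27 CpG dinucleotides, and Plagl1, with 19, lay above the median of 6 CpGs per window, and those of Ndn (5), Dlk1 (8) and Meg3 (10 in the window shown, 0 in the other) nearer to it. A match is a description of the letters and not a site of binding.

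Igf2r was the member called between genotypes in LSKs. It encodes the receptor that carries IGF2 and mannose 6-phosphate tagged enzymes to the lysosome, it is expressed from the maternal allele in most mouse tissues, and it lies on chromosome 17 (12682406 to 12769664, minus strand). WT LSK replicates 1 to 4 held 52.5, 21, 13.1 and 49.9 CPM of Igf2r. URE LSK replicates 1 to 4 held 5.93, 7.03, 9.18 and 8.24 CPM. Every URE library lay below every WT library, and WT replicates 1 and 4 stood well above WT replicates 2 and 3. The log2 fold change was -2.19 with a standard error of 0.44 (adjusted p = 0.0168, edgeR), a 4.57-fold lower level, and the exact two-sided permutation test gave p = 0.0286, the smallest that 4 against 4 libraries allow. Within replicates 1 and 4 the log2 fold change was -2.88 and within replicates 2 and 3 it was -1.10, where the call was lost (adjusted p = 0.391). The call also missed the threshold without URE LSK replicate 1 (adjusted p = 0.0533), without URE LSK replicate 2 (0.0503) and without WT LSK replicate 4 (0.0517), with log2 fold changes of -2.09, -2.14 and -1.97 by edgeR. With Y-linked transcripts as a covariate the log2 fold change was -2.51 (adjusted p = 0.0227, edgeR).

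In GMPs Igf2r was low in both genotypes and its difference pointed the other way. WT GMP replicates 1 to 4 held 2.47, 1.95, 0.88 and 3.16 CPM and URE GMP replicates 1 to 4 held 4.10, 6.58, 2.56 and 4.84 CPM of Igf2r. The groups overlapped, and the URE library was the higher in 4 of 4 pairs of the same replicate number. The log2 fold change of 1.08 ± 0.43 (SE) missed the threshold (adjusted p = 0.184, edgeR), whereas the fit with the replicate number as a block gave 1.13 and an adjusted p of 0.0417. Within replicates 1 and 4 it was 0.65 and within replicates 2 and 3 it was 1.65. The genotype effect on Igf2r was 3.26 ± 0.64 (SE) higher in GMPs than in LSKs on the log2 scale (adjusted p = 0.0218, edgeR interaction term). Without WT LSK replicate 4 this difference was 3.02 with an adjusted p of 0.0508 by edgeR, and within replicates 2 and 3 it was 2.76 with 0.728.

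Igf2r is covered in its introns by Airn, the paternally expressed antisense RNA that silences the paternal Igf2r copy, with 0 exonic bases in common. Airn averaged 1.15 ± 0.278 CPM in WT LSKs, 0.345 ± 0.263 in URE LSKs, 0.159 ± 0.071 in WT GMPs and 0.317 ± 0.197 in URE GMPs (SD, n = 4). Its log2 fold change between URE and WT LSKs was -1.74 ± 0.62 (SE, adjusted p = 0.181, edgeR), which missed the threshold. The libraries were unstranded, so Airn reads and reads from unspliced Igf2r RNA cannot be told apart.

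Markers of the LSK gate and of other cells also differed between URE and WT LSKs. Of 11 LSK markers, Cd34 (log2 fold change -1.31) and Flt3 (-1.67) were called lower in URE LSKs, and the summed level of all 11 ran from 3850 to 6460 CPM in WT LSKs and from 3390 to 4400 in URE LSKs. Of 4 monocyte markers 3 were called lower in URE LSKs, Irf8 (-3.19), Ly86 (-3.16) and Csf1r (-2.22), and the summed level of all 4 ran from 48.2 to 99.3 CPM in WT and from 9.45 to 17.6 CPM in URE LSKs. The endothelium marker Tek, which stem cells also express, was called lower (-2.33), with summed levels of the 5 genes of 189 to 259 CPM in WT and 98.8 to 146 CPM in URE LSKs. Of 8 erythroid markers Hbb-bt (-4.54) was called lower and 0 higher. Among those not called, Hba-a1 (2.29) and Hba-a2 (2.41) had positive and Car1 (-1.1) and Klf1 (-0.57) negative values. Cd4 (-3.04), the 1 of 4 T cell markers tested, was called lower. Among the markers called higher were Ngp of mature neutrophils (2.37), Itga2b of megakaryocytes (1.88), and Cpa3 (1.89) and Mcpt8 (2.11) of mast cells and basophils. The other mast cell and basophil markers, Ms4a2 (-2.74), Prss34 (-0.94) and Gata2 (-0.06), had negative log2 fold changes and were not called. Of the other megakaryocyte markers tested, Gp9 (-0.38), Pf4 (0.76) and Ppbp (5.16) were not called. The megakaryocyte sum ran from 52.2 to 75.4 CPM in WT and from 54.8 to 684 CPM in URE LSKs, highest in replicate 3. The mature neutrophil sum ran from 35.1 to 177 CPM in WT and from 177 to 357 CPM in URE LSKs, and that of mast cells and basophils from 68.9 to 155 and from 130 to 253 CPM. Their part in the result was not tested.

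Igf2, the fetal growth factor that Igf2r removes, was read at few counts. It is paternally expressed and lies on chromosome 7 (142650766 to 142666816, minus strand). WT LSK replicates 1 to 4 held 20, 6, 11 and 30 counts of Igf2 and URE LSK replicates 4, 10, 10 and 23 counts. The groups overlapped (0.62 ± 0.432 and 0.468 ± 0.347 CPM, log2 fold change -0.43 ± 0.69, adjusted p = 0.915, edgeR). All 4 WT GMP libraries were at 0, and URE GMPs held 3 counts, all in replicate 3. Against the 3 counts that a total of 0 allows over the group, pooled Igf2 was 17.4-fold higher in WT LSKs than in WT GMPs. This ratio leaves out the counting error and the spread of the LSK libraries. The neighbouring annotated gene Gm49394 shares 3596 exonic bases with Igf2 and was at 0 in every library, so that the split of reads between both rests on the authors' quantification.

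H19, the maternally expressed non-coding RNA 72.6 kb from Igf2, was read at few counts. WT LSK replicates 1 to 4 held 3, 5, 0 and 2 counts of H19 and URE LSK replicates 5, 4, 0 and 9 counts. GMPs of both genotypes held 0 counts in all 8 libraries. H19 failed the filter in every comparison. Against 3 counts per group, pooled H19 was 2.6-fold higher in LSKs than in GMPs of WT mice and 4.47-fold higher in URE mice. LSK replicate 3 was at 0 in both genotypes, so LSKs and GMPs overlapped (exact permutation p = 0.143 in WT and in URE mice). At this depth a genotype difference in H19 was not detectable (exact permutation p = 0.457 in LSKs).

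Grb10 encodes an adaptor that binds and dampens the insulin and IGF1 receptors, is expressed from the maternal allele outside the brain, and lies on chromosome 11 (11930508 to 12038683, minus strand). WT LSK replicates 1 to 4 held 94.8, 47.4, 20.6 and 141 CPM of Grb10 and URE LSK replicates 121, 75.8, 62.3 and 166 CPM. WT GMP replicates 1 to 4 held 90.1, 42.2, 8.99 and 143 CPM and URE GMP replicates 373, 203, 107 and 333 CPM. The groups overlapped in both cell types, replicates 1 and 4 were above replicates 2 and 3 in all 4 groups, and the URE library was the higher in 4 of 4 pairs in each cell type. In GMPs the log2 fold change was 1.84 ± 0.71 (SE, adjusted p = 0.174, edgeR), a 3.58-fold higher mean level that missed the threshold. With the replicate number as a block, which removes the spread between replicate numbers, it was 2.24 ± 0.33 with an adjusted p of 0.00308 (edgeR), and the gene was called. Within replicates 1 and 4 the log2 fold change in GMPs was 1.58 and within replicates 2 and 3 it was 2.57. In LSKs the log2 fold change was 0.46 ± 0.53 (adjusted p = 0.846), and 0.67 ± 0.22 with the block (adjusted p = 0.106, edgeR), with 0.26 for replicates 1 and 4 alone and 1.0 for replicates 2 and 3 alone. The difference between the genotype effects in GMPs and in LSKs was 1.35 ± 0.96 (SE, adjusted p = 0.7, edgeR), which missed the threshold.

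Plagl1 (Zac1), a zinc finger transcription factor on chromosome 10 (13060504 to 13131694, plus strand) that is paternally expressed, slows the cell cycle and is known as a regulator of other imprinted genes, was the member called between genotypes in GMPs. WT GMP replicates 1 to 4 held 4, 1, 4 and 4 counts of Plagl1, or 0.173, 0.0415, 0.196 and 0.208 CPM. URE GMP replicates 1 to 4 held 116, 294, 61 and 262 counts, or 5.59, 15.4, 3.13 and 14.8 CPM. No URE library came near a WT library, and within URE GMPs the levels spread over several-fold. The log2 fold change was 5.92 ± 0.69 (SE, adjusted p = 0.00124, edgeR), a 60.5-fold higher level that rests on 13 counts in all in WT GMPs, and the exact permutation test gave p = 0.0286. With the replicate block it was 5.74 (adjusted p = 0.000668, edgeR), within replicates 1 and 4 it was 5.69, and within replicates 2 and 3 it was 6.21 with an adjusted p of 0.0794.

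In LSKs Plagl1 was read at 4, 0, 0 and 0 counts in WT replicates 1 to 4 and at 28, 8, 1 and 5 counts in URE replicates 1 to 4. It failed the filter there, the groups overlapped, and the exact permutation test gave p = 0.0571. From URE LSKs to URE GMPs Plagl1 was called higher by 4.52 ± 0.88 on the log2 scale (SE, adjusted p = 0.00602, edgeR), and by 5.74 without URE LSK replicate 1, which held most of the LSK counts (adjusted p = 0.00325, edgeR). The genotype effect in GMPs exceeded that in LSKs by 2.60 ± 1.72 (adjusted p = 0.654, edgeR), so a difference between cell types was not shown. It was -0.29 without WT LSK replicate 1, the only WT LSK library with a count.

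Markers of other cells also differed between URE and WT GMPs. Of 6 mature neutrophil markers, Ngp (log2 fold change 2.95) and Retnlg (3.74) were called higher in URE GMPs, and their summed level ran from 44.9 to 144 CPM in WT GMPs and from 217 to 994 CPM in URE GMPs. Of the stroma markers, Col1a2 was called higher (log2 fold change 4.29), and the summed level of the 8 genes ran from 35.6 to 152 CPM in WT GMPs and from 135 to 439 CPM in URE GMPs, most of it from Vcam1 (51.6 ± 21.6 and 150 ± 91.5 CPM) and Pdgfrb (30.8 ± 37 and 83.1 ± 74.8 CPM, SD, n = 4), neither of them called. Pdgfra was at 0 in all GMP libraries and Col3a1 at no more than 0.113 CPM. All 4 monocyte markers were called lower in URE GMPs, Ly86 (-3.59), Csf1r (-3.44), Irf8 (-2.51) and Ccr2 (-2.36), with sums of 490 to 830 CPM in WT and 45.8 to 234 CPM in URE GMPs. Of 5 mast cell and basophil markers Mcpt8 (1.48) was called higher and Ms4a2 (-2.92) and Prss34 (-2.42) lower, with sums of 706 to 1260 and 862 to 2370 CPM. Of 5 endothelium markers Pecam1 (0.98) was called higher and Tek (-4.89) lower, and Emcn (-2.22) was not called. The sums ran from 137 to 203 CPM in WT and from 232 to 404 CPM in URE GMPs. Most of this was Pecam1 (155 ± 21.3 and 308 ± 71.7 CPM), while Tek fell from 16.2 ± 9.04 to 0.538 ± 0.23 CPM. The part of these cells in the result was not tested.

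**Figure D2:**
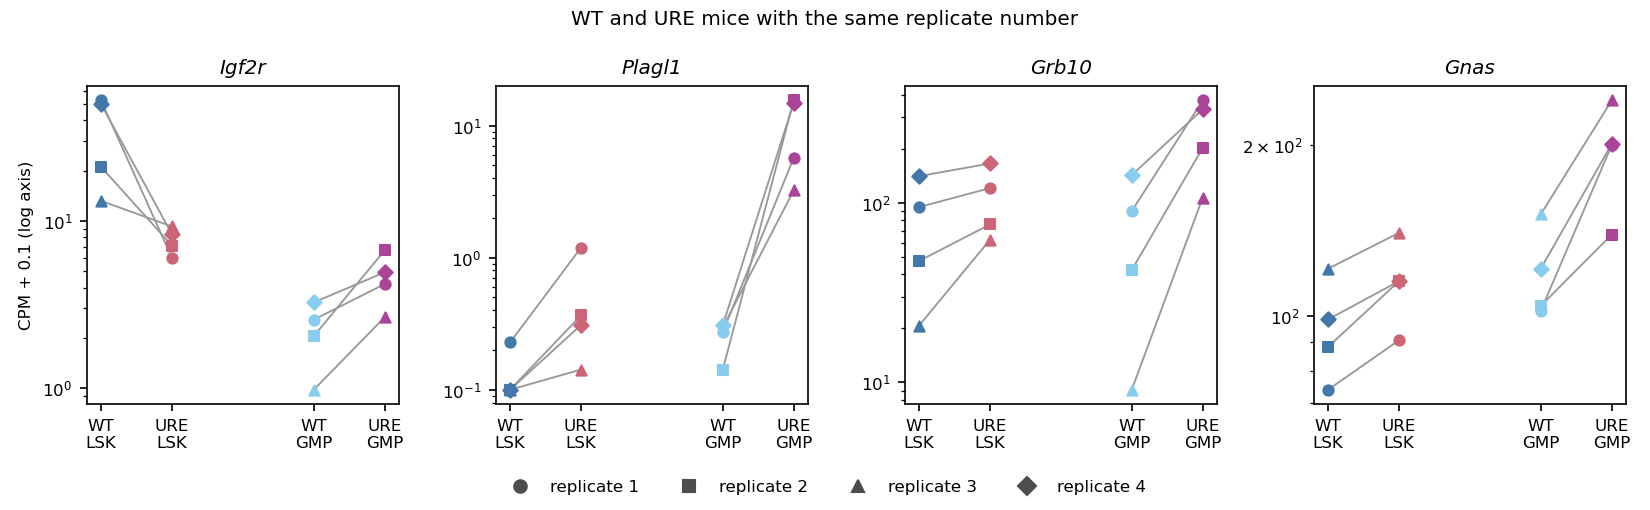
CPM of Igf2r, Plagl1, Grb10 and Gnas plus 0.1 on a log axis, with lines that join the WT and the URE mouse of the same replicate number in LSKs (left) and GMPs (right), 4 mice per group. The URE mouse is the lower in Igf2r in 4 of 4 pairs of LSKs and the higher in 4 of 4 pairs of GMPs, and it is the higher in Grb10 and Gnas in 4 of 4 pairs of each cell type.

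Gnas, on chromosome 2 (174284320 to 174346744, plus strand), encodes the stimulatory G protein alpha subunit, which relays hormone receptors to cAMP, and several other products from alternative first exons with different imprints. The deposited counts merge its 24 annotated transcripts. WT LSK replicates 1 to 4 held 73.9, 88, 121 and 98.4 CPM of Gnas and URE LSK replicates 90.4, 115, 140 and 115 CPM. WT GMP replicates held 102, 104, 151 and 121 CPM and URE GMP replicates 200, 139, 240 and 201 CPM. In GMPs URE replicate 2 lay within the WT range and the other 3 above it. The log2 fold change was 0.70 ± 0.22 (SE, adjusted p = 0.0921, edgeR) and missed the threshold, and with the replicate block it was 0.69 with an adjusted p of 0.01 and the gene was called. Without URE GMP replicate 2 it was 0.82 with an adjusted p of 0.0492 by edgeR. In LSKs it was 0.24 ± 0.21 (adjusted p = 0.752, edgeR). The antisense gene Gnasas1 (Nespas) shares 988 exonic bases with Gnas and averaged between 0.292 CPM in WT LSKs and 2.28 CPM in URE GMPs. Gm20721, also on the opposite strand, shares 1469 exonic bases with Gnas and averaged between 0.102 CPM in WT LSKs and 0.363 CPM in URE LSKs. The libraries do not mark strand, so the split of reads between these genes and Gnas is uncertain.

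Ndn, Dlk1 and Meg3 were lower in GMPs than in LSKs, and none was called between genotypes where tested. Dlk1 and Meg3 failed the filter on low counts between URE and WT GMPs. Ndn (Necdin), a paternally expressed MAGE family protein known to restrain the cell cycle of hematopoietic stem cells, lies in 1 exon on chromosome 7 (62346569 to 62350262, plus strand). WT LSK replicates 1 to 4 held 21.6, 18.2, 8.40 and 25.3 CPM of Ndn and URE LSK replicates 13.4, 19.7, 34 and 20.2 CPM. WT GMPs held 0.476 to 0.831 CPM and URE GMPs 0.522 to 1.38 CPM. LSKs and GMPs did not overlap in either genotype, whereas WT and URE overlapped in both cell types. From LSKs to GMPs Ndn was lower by a log2 fold change of -4.72 ± 0.41 in WT (SE, adjusted p = 9.56e-05, edgeR) and of -4.49 ± 0.44 in URE mice (adjusted p = 0.000253, edgeR), which is 26.4-fold and 22.5-fold. Between genotypes its log2 fold change was 0.23 ± 0.37 in LSKs (adjusted p = 0.917) and 0.51 ± 0.42 in GMPs (adjusted p = 0.591, edgeR). For replicates 1 and 4 alone the LSK value was -0.50 and for replicates 2 and 3 alone 0.99.

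Dlk1, a paternally expressed transmembrane relative of the Notch ligands on chromosome 12 (109452823 to 109463336, plus strand), was read at 24 to 54 counts in WT LSKs and at 29 to 83 counts in URE LSKs. WT GMP replicates 1 to 4 held 0, 1, 11 and 12 counts and URE GMP replicates 7, 4, 4 and 0 counts. LSKs and GMPs did not overlap in either genotype. In URE mice Dlk1 was called lower in GMPs (log2 fold change -3.45 ± 0.71, adjusted p = 0.00769, edgeR), though not within replicates 2 and 3 alone (-3.23, adjusted p = 0.114). In WT mice the log2 fold change of -2.44 ± 0.87 missed the threshold (adjusted p = 0.0635, edgeR), and with the replicate block it was -2.71 with an adjusted p of 0.00916. Between genotypes it was 0.36 ± 0.44 in LSKs (adjusted p = 0.855, edgeR).

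Meg3, the maternally expressed non-coding RNA that starts 77.7 kb downstream of Dlk1 on chromosome 12 (109541001 to 109571726, plus strand), was read at 52, 19, 42 and 14 counts in WT LSK replicates 1 to 4 and at 22, 9, 59 and 15 counts in URE LSK replicates 1 to 4. GMPs held 2 counts in WT replicate 4 and 0 in the other 7 libraries. The order of the replicates was not that of Dlk1, and replicates 1 and 3 were the higher in both genotypes. Meg3 was called lower in WT GMPs than in WT LSKs (log2 fold change -5.33 ± 0.92, adjusted p = 0.0027, edgeR), and by -7.86 without WT GMP replicate 4, a fit that depends on the prior count since the other WT GMP libraries are at 0. Replicates 1 and 4 alone gave -4.41, and replicates 2 and 3 alone, where WT GMPs are at 0, gave -7.82. In URE mice pooled Meg3 was 26.1-fold higher in LSKs than in GMPs against 3 counts per group. Between genotypes the log2 fold change in LSKs was -0.13 ± 0.69 (adjusted p = 0.979, edgeR). Rian, the next non-coding RNA of the cluster, averaged 0.69 ± 0.242 CPM in WT LSKs and 0.345 ± 0.239 CPM in URE LSKs and was near 0 in GMPs.

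Peg3, a paternally expressed zinc finger protein on chromosome 7 (6703892 to 6730431, minus strand), was read at 8, 16, 5 and 13 counts in WT LSK replicates 1 to 4 and at 74, 7, 27 and 41 counts in URE LSK replicates 1 to 4. URE replicate 2 lay within the WT range and the other 3 above it. The log2 fold change of 1.94 ± 0.71 missed the threshold (adjusted p = 0.199, edgeR), with 2.53 for replicates 1 and 4 alone and 0.85 for replicates 2 and 3 alone. WT GMPs held 0 counts, and URE GMPs held 20 counts, all in replicate 4. That library had the highest summed level of both stroma markers (439 CPM) and endothelium markers (404 CPM) among the 16. Most of the endothelium sum in URE GMPs was Pecam1 (308 ± 71.7 CPM), and Tek (0.538 ± 0.23 CPM) and Emcn (0.758 ± 0.74 CPM) were low. The part of stroma or endothelium in the result was not tested. Pooled Peg3 was 10.9-fold higher in WT LSKs than in WT GMPs against 3 counts per group. From URE LSKs to URE GMPs the log2 fold change was -2.48 ± 1.35 (adjusted p = 0.23, edgeR), and with the replicate block -3.60 with an adjusted p of 0.0449. Without URE GMP replicate 4, which leaves URE GMPs at 0, the fitted value was -8.14.

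Counted together, 8 of the 10 members were tested between URE and WT LSKs. By edgeR, 1 of the 8 (Igf2r) was called lower and 0 higher (1 at an unadjusted p under 0.05, Peg3, and 0 by DESeq2), while 3.76% of all 15154 genes tested were called lower and 2.38% higher. The median log2 fold change of these members was 0.23 and that of all genes 0.00. Between URE and WT GMPs 5 members were tested, and 1 (Plagl1) was called higher and 0 lower (0 at an unadjusted p under 0.05 and 0 by DESeq2), against 4.67% and 3.63% of 13829 genes. With the replicate block 4 of these 5 (Plagl1, Grb10, Gnas and Igf2r) were called higher by edgeR. The shares above are without the block. With it, 2260 of all genes were called in both directions together, against 1148 without it. The members' median was 1.08 and that of all genes 0.01.

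Between WT GMPs and WT LSKs 6 members were tested, of which 3 (Ndn, Igf2r and Meg3) were called lower and 0 higher (0 at an unadjusted p under 0.05 and 0 by DESeq2), against 15.8% and 11.5% of 14767 genes. The members' median log2 fold change was -3.23 and that of all genes -0.09. DESeq2, which also tested Igf2 and Peg3, called 6 members lower. Between URE GMPs and URE LSKs 7 were tested, of which 2 (Ndn and Dlk1) were called lower and 2 (Plagl1 and Gnas) higher, against 12.6% and 9.2% of 14395 genes, with medians of -0.80 and -0.09. Igf2r fell by a log2 fold change of -4.02 ± 0.56 in WT mice (SE, adjusted p = 0.00105, edgeR), and in URE mice its value of -0.80 ± 0.33 missed the threshold (adjusted p = 0.121, edgeR). Grb10 had -0.10 ± 0.77 in WT (adjusted p = 0.942) and 1.21 ± 0.43 in URE mice (adjusted p = 0.0716, edgeR), and with the replicate block 1.17 and an adjusted p of 0.00105 in URE mice. It was also called there without URE GMP replicate 3 (1.47) and without URE LSK replicate 4 (1.56).

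The call of Gnas from URE LSKs to URE GMPs was the weakest of these (0.72 ± 0.21, adjusted p = 0.036, edgeR). The groups overlapped, the exact permutation test gave p = 0.0571, and leaving out any of 6 single libraries (URE GMP replicates 1, 3 or 4, or URE LSK replicates 1, 2 or 4) ended the call, with log2 fold changes of 0.72, 0.61, 0.72, 0.65, 0.75 and 0.76 in that order. So did replicates 2 and 3 alone (adjusted p = 0.398) and the fit with no filter on low counts (adjusted p = 0.0534, edgeR). For the difference of the genotype effect between cell types, called at an adjusted p under 0.05 alone, 9 members were tested and 1 (Igf2r) was called higher in GMPs and 0 lower (0 at an unadjusted p under 0.05 and 0 by DESeq2), against 0.866% and 0.351% of 15935 genes, with medians of 1.35 and 0.00.

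**Figure D3:**
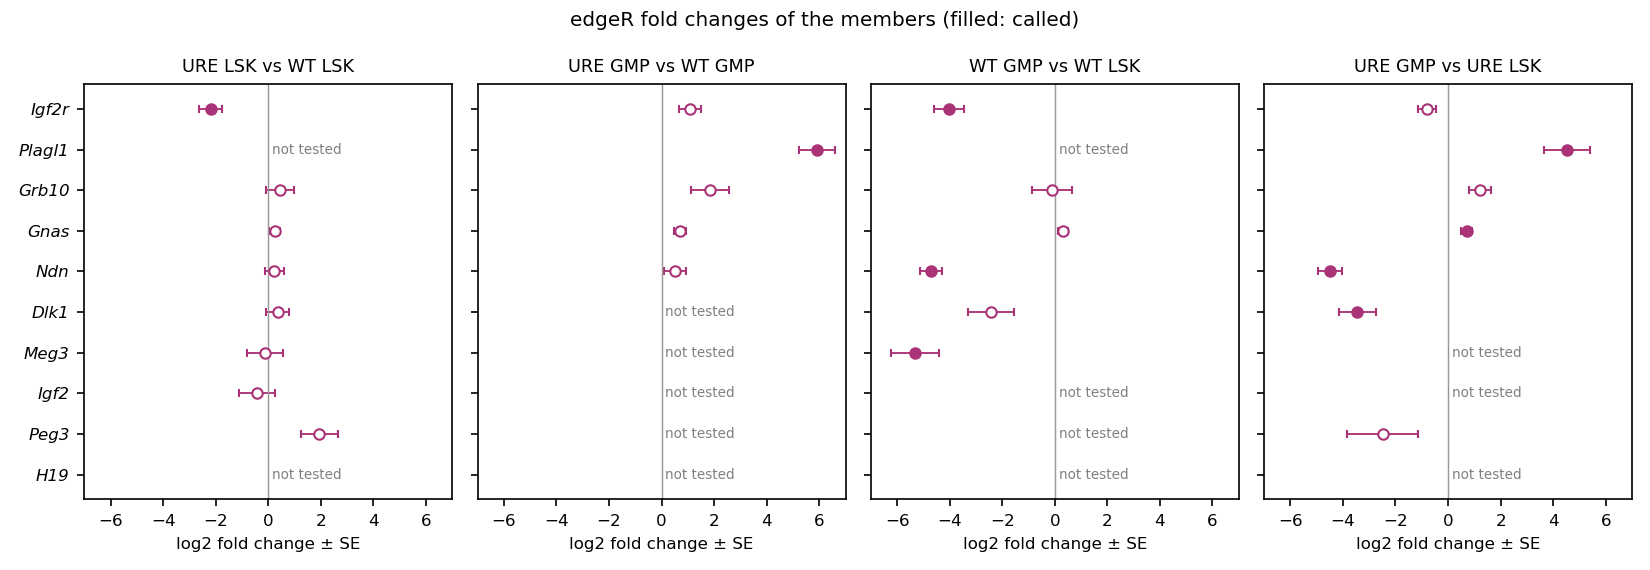
Log2 fold change ± SE of each member by edgeR in the 4 comparisons, 4 against 4 libraries each, filled where called and marked where the counts failed the filter. Igf2r lies at -2.19 between genotypes in LSKs and at 1.08 in GMPs, Plagl1 at 5.92 between genotypes in GMPs, and Ndn at -4.72 and -4.49 between GMPs and LSKs.

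The imprinted neighbours at the members' loci were a list of 35 genes, chosen for their position. Between URE and WT LSKs 19 were tested, and 2 were called lower and 1 higher (list median 0.17, all genes 0.00), against 3.76% and 2.38% of all genes. Both that were lower lie in the Cdkn1c and Kcnq1ot1 domain beyond Igf2. Phlda2, a maternally expressed pleckstrin homology protein that limits placental growth, averaged 8.18 ± 3.17 CPM in WT LSKs and 0.272 ± 0.246 in URE LSKs (log2 fold change -4.90 ± 0.71, adjusted p = 0.00354, edgeR). Slc22a18, a maternally expressed transporter next to it, averaged 11.5 ± 1.08 and 2.85 ± 1.15 CPM (-2.04 ± 0.35, adjusted p = 0.00784, edgeR). Atp10a, a phospholipid flippase near Ndn, rose by 1.22 ± 0.27 (adjusted p = 0.0295, edgeR). With the replicate block, which also called more of all genes, 3 were called higher and 2 lower. Cdkn1c, the imprinted kinase inhibitor of the same domain, averaged 1.1 ± 0.483 CPM in WT LSKs and 0.749 ± 0.382 in URE LSKs and was not called (adjusted p = 0.811, edgeR). Between URE and WT GMPs 16 were tested and 2 were called higher, Tspan32 (0.76 ± 0.16) and Ddc (2.39 ± 0.44), the gene beside Grb10, and 0 lower (1 at an unadjusted p under 0.05 and 1 by DESeq2), and with the replicate block 4 were called higher. Without the block, 4.67% of all genes were called higher in URE GMPs and 3.63% lower (list median 0.08, all genes 0.01).

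From LSKs to GMPs of WT mice 18 neighbours were tested, of which 7 were called lower and 1 higher (list median -0.51, all genes -0.09). Those lower were Snrpn (-7.22 ± 0.72), which encodes a splicing protein, Phlda2, Airn, Cdkn1c, Ddc, Slc22a18 and Mkrn3, and the one that rose was Ascl2, a basic helix-loop-helix factor (2.82 ± 0.33, adjusted p = 0.000433, edgeR). In URE mice 16 were tested, with 5 lower, among them Snrpn (-5.62 ± 0.47), and 2 higher, Ascl2 and Gnasas1 (list median -0.58). Of all genes, 12.6% were called lower and 9.2% higher there. Of 26 further imprinted genes, 18 were tested in WT mice and 4 were called lower (Sgce, Cdh15, Ppp1r9a and Htr2a) and 0 higher (1 at an unadjusted p under 0.05 and 1 by DESeq2), against 9 lower and 1 higher with the replicate block. In URE mice 17 were tested and the same 4 and Impact were called lower, beside 12.6% of all genes (list median -0.45). Sgce, a sarcoglycan of the Peg10 locus, averaged 34.9 ± 2.7 CPM in WT LSKs and 5.78 ± 0.792 in WT GMPs (log2 fold change -2.60 ± 0.19, adjusted p = 4.13e-05, edgeR). Beside both lists together in WT mice (36 tested, 11 lower and 1 higher, median -0.58), 15.8% of all genes were called lower and 11.5% higher.

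**Figure D4:**
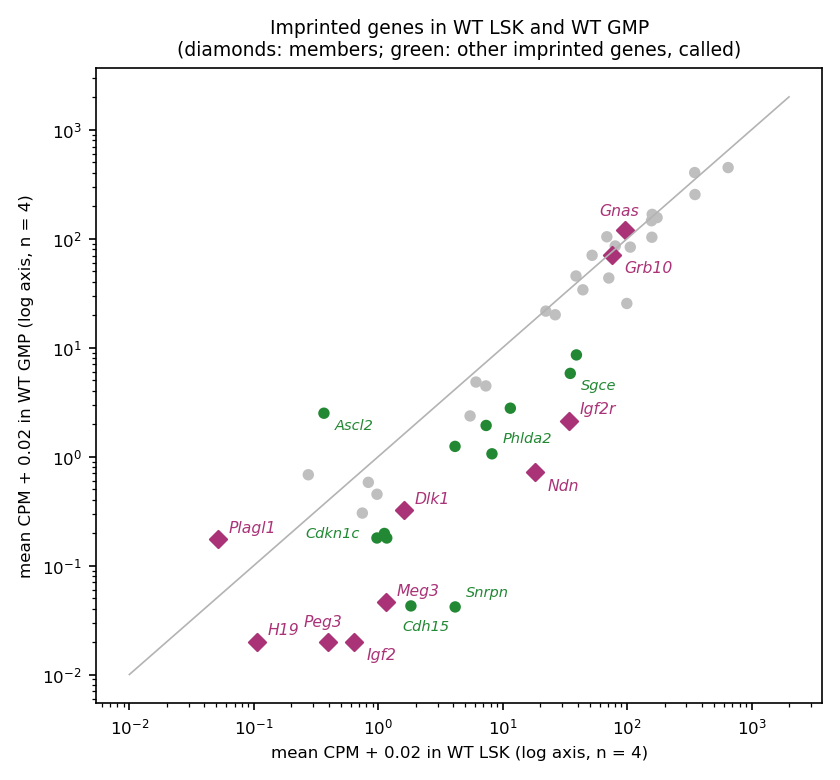
Mean CPM plus 0.02 in WT LSKs (horizontal) against WT GMPs (vertical), both on log axes, n = 4 each, for the 10 members (diamonds) and the imprinted genes of both lists that were tested (circles, green where called), with the line of equal level. Igf2r, Ndn and Meg3 lie far below the line with Snrpn, Sgce and Cdh15, Gnas and Grb10 lie near it, and Ascl2 lies above it.

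Partners of the IGF and insulin pathway were a list of 19 genes. In GMPs 10 were tested, and 3 were called higher and 1 lower in URE mice (list median 0.43, all genes 0.01), against 4.67% and 3.63% of all genes. Igf2bp2, an RNA-binding protein that takes up Igf2 and other mRNAs, averaged 4.73 ± 0.963 CPM in WT GMPs and 38.9 ± 13.9 in URE GMPs (log2 fold change 3.02 ± 0.31, adjusted p = 0.000753, edgeR), and its genotype effect was larger in GMPs than in LSKs by 2.71 ± 0.53 (adjusted p = 0.0204, edgeR). Grb14, an adaptor of the Grb10 family that binds the insulin receptor, rose by 3.53 ± 0.60 (adjusted p = 0.00724, edgeR) and Irs2, a docking protein of that receptor, by 1.31 ± 0.31 (adjusted p = 0.0325, edgeR). Igfbp4, a secreted protein that binds IGFs, fell by a log2 fold change of -2.07 ± 0.21 (adjusted p = 0.000772, edgeR). In LSKs 12 were tested and Hmga2, a chromatin protein that is known to raise Igf2bp2, was called higher (1.98 ± 0.38, adjusted p = 0.0146, edgeR), with 0 lower (0 at an unadjusted p under 0.05 and 0 by DESeq2). With the replicate block 3 of the 12 were called higher. Without the block, 2.38% of all genes were called higher in URE LSKs and 3.76% lower (list median 0.67, all genes 0.00). Igf1r, the receptor that signals for IGF1 and IGF2, had 1.08 ± 0.41 in LSKs (adjusted p = 0.212) and 0.42 ± 0.56 in GMPs (adjusted p = 0.767, edgeR).

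Of 14 factors that keep or read imprints, 12 were tested in each comparison. In URE LSKs 1 was called higher and 1 lower, beside 2.38% and 3.76% of all genes. In URE GMPs 0 were called higher and 1 lower, beside 4.67% and 3.63%. Zfp57, which protects methylated imprints, averaged 4.19 ± 0.788 CPM in WT LSKs and 15.3 ± 1.72 in URE LSKs (log2 fold change 1.83 ± 0.25, adjusted p = 0.00245, edgeR). Tet1, which oxidises methylated cytosine, was called lower in URE LSKs (-1.11 ± 0.18, adjusted p = 0.00662) and in URE GMPs (-1.26 ± 0.24, adjusted p = 0.011, edgeR), where it was the only one of the 12 called, against 3 lower with the replicate block. Both were lower in GMPs than in LSKs of WT mice, Zfp57 by -2.81 ± 0.34 and Tet1 by -1.46 ± 0.17. Ctcf had log2 fold changes of 0.02 in LSKs and -0.28 in GMPs between genotypes and was not called (adjusted p = 0.993 and 0.622, edgeR).

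The genes whose log2 CPM ran most like each member over the 16 libraries, among 9074 genes of at least 3 log2 CPM on average, are given as a description, since libraries share genotype, cell type and replicate number. For Ndn they were Pglyrp2 (Pearson r = 0.977) and the imprinted Sgce (0.975), for Igf2r Glipr2 (0.909) and Fdft1 (0.907), for Grb10 Elmod3 (0.972) and Ikbke (0.952), and for Plagl1 Ntpcr and Galns (0.934 each). For Meg3 they were Atp10d (0.954) and Dst (0.942), for Dlk1 Gltp (0.95) and Egfl7 (0.916), for Gnas Mbd2 (0.961) and Trappc6a (0.871), for Peg3 Dcaf5 (0.907) and Fnbp1l (0.87), and for Igf2 Zfp664 (0.91) and Prkcq (0.904). H19 was too rare to be compared.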

How the data were processed

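The 16 libraries hold RNA of sorted LSKs and GMPs, each from 4 WT and 4 URE mice. The authors quantified unstranded paired-end reads with salmon (mouse build GRCm38, per the labels), aggregated them to genes with tximport and deposited estimated counts per gene, rounded to whole numbers and not normalized. The annotation release behind these counts is not given in the sources used here. Libraries carried no molecular identifiers, so depth and floors cover counting error only. Where a group held 0 counts, 3 counts stood in for its total. The counts of the other group were pooled without an error.

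Gene identifiers were matched to GENCODE M21 (54094 of 54347). Promoter windows and motifs come from the RefSeq table of GRCm38.p6. Counts were normalized by TMM, filtered with filterByExpr and tested with edgeR 4.0.16 (limma 3.58.1, R 4.3.3), with Benjamini-Hochberg adjustment over all genes tested. Calls followed the study's thresholds, a fold change over 1.5 and an adjusted p under 0.05. Each comparison was fitted on its own groups, and the interaction on all 16 libraries. Standard errors were taken from the log2 fold change and the F statistic. CPM use TMM effective library sizes over all libraries. Permutation tests were exact and two-sided, over log2 CPM (prior count 2). DESeq2 1.42.0, other filters and size factors, a joint fit, thinned counts, replicate subsets, a Y-linked covariate, the replicate block and single omissions were alternatives. The scripts were tested on artificial counts.

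The members and gene lists were chosen with earlier results of these data known. Genes named are the members, Spi1, called genes of the lists (up to 8 per list and comparison by adjusted p) or those of note at a member's locus, and the 2 most similar genes per member. Replicate numbers, 1 to 4 in each group, come from the labels. Deviations of same-numbered libraries from their group means were correlated in every pair (r from 0.237 to 0.711). Libraries of different numbers were not compared in this way. The sets of replicates that stood apart in every group on the leading principal components could alone give such correlations. The correlations therefore cannot show that the numbers pair the samples, and the sources used here do not say what a shared number stands for. Pairs and the replicate block rest on the numbers as an assumption. Blocked values are given where they change a call.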

Additional observations from a re-analysis of the deposited data

Results flagged for a closer look

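The genotype effect on Igf2r differed between cell types by 3.26 on the log2 scale by edgeR's interaction term, since URE LSKs held less and URE GMPs, in 4 of 4 pairs, more Igf2r than WT cells of the same type. Of 35 groups of 4 libraries in which a member was above 0, 4 held 1 library far from the others by Dixon's ratio. In all 4 the other 3 libraries of the group were at 0, so that any library with a count gives this ratio, and the usual chance share of 1 in 20 groups does not apply. Peg3 stood at 1.13 CPM (20 counts) in URE GMP replicate 4. The other cases rest on few counts, namely Igf2 at 0.154 CPM (3 counts) in URE GMP replicate 3, Meg3 at 0.104 CPM (2 counts) in WT GMP replicate 4 and Plagl1 at 0.128 CPM (4 counts) in WT LSK replicate 1.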

How the results depend on the processing

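The number of members called between URE and WT LSKs was 1, was 0 with replicates 2 and 3 only, and ran from 0 to 1 when single libraries were left out. In GMPs it was 1, against 2 in the joint fit, 4 with the replicate block, 3 with replicates 1 and 4 only and 0 with replicates 2 and 3 only, and 1 to 2 without single libraries. For WT GMPs against WT LSKs it was 3, against 6 by DESeq2, 6 in the joint fit and 5 with no filter. For URE GMPs against URE LSKs it was 4, against 7 by DESeq2 and 2 with replicates 2 and 3 only. For the interaction it was 1, and 0 with replicates 2 and 3 only, with 0 to 1 without single libraries. The replicate block changed no call of a member beyond those given beside the results. The cause was not tested, other than that subsets hold fewer libraries and DESeq2, the joint fit and no filter test more members.

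Calls over all genes moved by more than 1.5 times in these cases. In LSKs 930 genes were called, against 1638 by DESeq2, 1433 with the replicate block, 506 with the Y-linked covariate, 386 with replicates 2 and 3 only and 565 to 961 without single libraries. In GMPs 1148 were called, against 1984, 2260, 620, 108 and 715 to 1176. For WT maturation 4037 became 2507 and for URE maturation 3133 became 810 with replicates 2 and 3 only. For the interaction 194 became 620 by DESeq2, 1047 with the replicate block and 2 with replicates 2 and 3 only, and 84 to 283 without single libraries.

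Fold changes that turned sign belonged to members that were not called. Between URE and WT LSKs, replicates 2 and 3 gave 0.22 for Igf2 and 0.24 for Meg3, replicates 1 and 4 gave -0.50 for Ndn, and the Y-linked covariate gave 0.14 for Meg3 and -0.19 for Ndn. For the interaction, replicates 2 and 3 gave -0.82 for Peg3 and -0.72 for Ndn. Without single libraries the values ran from -1.04 to 0.08 for Igf2, -0.97 to 0.22 for Meg3 and -0.07 to 0.41 for Ndn in LSKs, from -0.69 to 0.38 for Grb10 in WT maturation, and for the interaction from -2.74 to 0.08 for Meg3, -0.29 to 3.78 for Plagl1 and -1.99 to 4.30 for Peg3. In all, 667 fold changes of members under alternatives kept direction and side of the threshold, 17 came past it and 16 fell short of it. H19, Igf2, Meg3, Dlk1 and Peg3 rest on few counts, and depth limits what can be said of them in GMPs.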

Other observations

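Of 12 genes tied to quiescence or to leaving it, 6 were called lower and 2 higher in WT GMPs than in WT LSKs, against 15.8% and 11.5% of all genes, with a list median of -0.75 on the log2 scale and -0.09 over all genes. Hlf and Mecom, transcription factors of stem cells, were lower by -3.80 ± 0.34 and -3.74 ± 0.43 on the log2 scale, and Txnip, which restrains glucose uptake, by -2.29 ± 0.19. Cdk6 (1.51 ± 0.22) and the proliferation marker Mki67 (0.92 ± 0.19) were higher, all called by edgeR. Between URE and WT GMPs 11 were tested and Ccnd1, which encodes the G1 cyclin D1, was called lower (28.6 ± 12.9 CPM in WT and 3.56 ± 0.217 in URE GMPs, log2 fold change -3.00 ± 0.38, adjusted p = 0.00178, edgeR), with 0 higher (0 at an unadjusted p under 0.05 and 0 by DESeq2). Its genotype effect was lower in GMPs than in LSKs by -2.77 ± 0.49 (adjusted p = 0.0122, edgeR). Of all genes, 3.63% were called lower and 4.67% higher in URE GMPs.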
